A study of Homo sapiens with 18 samples.

Results

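In SJSA cells, a human osteosarcoma line with amplified MDM2 and CDK4, 100 genes were picked out because their RNA stood above the untreated level 6 h after PD0332991 had been taken away, while it lay near the untreated level when the drug stayed on. PD0332991 (Palbociclib) inhibits the kinases CDK4 and CDK6, and Nutlin blocks the binding of MDM2 to p53. The RNA-seq data comprised 18 libraries in 6 groups, with 3 replicates in each group. Cells of the DMSO group received neither drug, PD30 cells were kept in 10 µM PD0332991 for 30 h, and PD24 cells were in it for 24 h and then without it during the remaining 6 h. Nutlin cells received 20 µM Nutlin for the last 6 h, and N+PD24 and N+PD30 combined this with either schedule of PD0332991. The labels give 20 µM for every Nutlin sample. A supplementary scheme of the study also shows a lower dose, beside immunoblots of CRL3043 and CRL3044 cells, and another, for SJSA cells, shows 20 µM.

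The members were chosen on group means of counts scaled to a library total of 1000000 (CPM), on the scale log2(mean + 0.5). Of the 23368 genes in the tables, 7163 reached 2 CPM in at least 1 group and had a PD30 level between 0.5 below and 0.3 above DMSO on this scale, and the 100 with the largest difference between PD24 and DMSO were kept. The values that chose them are therefore given as a description, with no test. The smallest differences inside the limit were those of STEAP1 (0.976), THBS1 (0.968) and CD82 (0.968), and the next genes outside were CXCR7 (0.966), NDUFS7 (0.962) and ABCC9 (0.957). Under continuous drug the members lay near the DMSO level, as the rule required, with a median difference of 0.08 (range -0.50 to 0.29). Within this window some lay below DMSO in PD30, such as MT1X (-0.48) and DKK1 (-0.50), and others above it. For those below, part of the difference between PD24 and PD30 was a return to the DMSO level. Whether the removal included a change of medium that DMSO and PD30 cells did not receive is not stated, and removal and such a change cannot be told apart here.

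Palbociclib keeps the retinoblastoma protein in its active form and holds cells in G1 phase, and its removal lets CDK4 and CDK6 act again. In the study's flow cytometry, cells had not resumed the cycle after 6 h without the drug, as far as DNA staining could show. Several of the members are well known from other settings in which cells are suddenly stimulated. F3, PLAUR, HBEGF and IL8 are classical targets of growth factor, serum and AP-1 signaling, HMOX1, SRXN1 and SQSTM1 are targets of the oxidative stress factor NRF2, and MT1X and SLC30A1 respond to zinc through the metal-sensing factor MTF1. The 100 members comprised 92 protein-coding genes on GRCh37, and 98 could be placed on that build, 12 of them through a synonym.

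Total counts per library ranged from 12.7 to 40.2 in units of 1000000, with the lowest in N+PD30 replicate 1. All 10 mesenchymal and osteoblast markers reached 1 CPM (VIM 1636 to 3010 CPM, RUNX2 18.2 to 34.5 CPM), and of the epithelial, blood and endothelial markers KRT5 (at most 0.0655 CPM), CD3E (0.0541 CPM) and CDH5 (0.123 CPM) were near 0. KRT8 (9.47 to 36.9 CPM), CD68 (13.6 to 36.4 CPM), LYZ (1.18 to 2.98 CPM), VWF (1.27 to 13.5 CPM), KDR (0.866 to 4.04 CPM) and PECAM1 (0.464 to 2.36 CPM) were detected in every library. All 3 tested endothelial markers were higher in N+PD24 than in N+PD30 (median log2 difference 0.83), with a summed level of the list of 13.3 to 18.3 CPM against 6.93 to 9.68 CPM, and their part in the members' difference was not tested. Of the epithelial markers 1 of 4 tested was higher, and of the blood markers 0 of 2. The study calls the replicates biological, while the labels do not say whether they were separate cultures, and p-values measure the spread between these samples. In bulk RNA, fewer cells with a transcript and less of it per cell cannot be told apart.

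The promoters of 75 members were found among the RefSeq promoters on GRCh38.p14, each running from 250 bases before to 50 bases after the gene start. They were searched on both strands for motifs of the factors named above. The AP-1 motif TGANTCA was found in 10 of the 75 (13.3%), against 5.04% of the 11977 promoters of tested genes and 7.76% of all 27305. TGACNNNGC, the core of the NRF2 motif, was found in 22 (29.3%), against 15.1% of tested genes and 13.6% of all. It can match the same bases as TGANTCA, as it did in SPHK1 on the minus strand, so these counts are not separate. TGCACNC or TGCGCNC, the core of the metal response element, was found in 32 (42.7%), against 38% and 29.3%. The CArG box of serum response factor was in 0 of 75 windows, where it was found in 1.1% of tested genes, TGACGTCA was in 2 (2.67%, against 3.11%), the E2F-like words TTTGGCGC or TTTCCCGC were in 1 (1.33%, against 3.46%), and TATAAA was in 8 (10.7%, against 6.33%). A match is a description of the letters and not a site of binding. Sequences are shown for 4 members whose promoters held a motif, and they do not stand for the other members. Their ranks were 1 (SPHK1), 4 (F3), 7 (MT1X) and 22 (PLAUR). TGANTCA is in capitals for F3, PLAUR and SPHK1, and TGCACNC or TGCGCNC for MT1X.
F3, tissue factor, minus strand of chr1:94541710-94542009: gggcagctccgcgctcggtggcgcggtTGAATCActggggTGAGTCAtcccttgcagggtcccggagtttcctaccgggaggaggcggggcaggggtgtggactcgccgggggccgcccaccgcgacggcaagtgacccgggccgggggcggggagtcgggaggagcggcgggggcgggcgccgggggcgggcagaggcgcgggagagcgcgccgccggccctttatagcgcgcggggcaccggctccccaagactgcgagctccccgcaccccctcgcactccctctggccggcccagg
PLAUR, minus strand of chr19:43670120-43670419: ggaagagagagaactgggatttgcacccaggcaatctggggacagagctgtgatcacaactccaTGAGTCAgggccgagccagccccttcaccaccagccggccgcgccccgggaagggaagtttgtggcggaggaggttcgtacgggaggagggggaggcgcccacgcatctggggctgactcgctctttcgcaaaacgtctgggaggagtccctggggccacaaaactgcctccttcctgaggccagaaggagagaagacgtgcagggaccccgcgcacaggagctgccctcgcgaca
SPHK1, plus strand of chr17:76382954-76383253: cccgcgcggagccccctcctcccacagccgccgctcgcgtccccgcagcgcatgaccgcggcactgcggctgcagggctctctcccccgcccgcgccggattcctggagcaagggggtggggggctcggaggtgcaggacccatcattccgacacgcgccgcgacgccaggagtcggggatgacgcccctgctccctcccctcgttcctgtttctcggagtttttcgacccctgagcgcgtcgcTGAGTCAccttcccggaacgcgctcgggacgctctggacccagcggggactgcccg
MT1X, plus strand of chr16:56682220-56682519: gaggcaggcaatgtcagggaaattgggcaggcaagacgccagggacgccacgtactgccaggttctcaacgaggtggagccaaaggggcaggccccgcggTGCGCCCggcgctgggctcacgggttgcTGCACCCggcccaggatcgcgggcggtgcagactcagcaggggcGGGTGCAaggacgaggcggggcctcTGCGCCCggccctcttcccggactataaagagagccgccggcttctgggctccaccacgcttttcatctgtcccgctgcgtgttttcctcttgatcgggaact
In F3 the motif occurred at 2 places, beginning 223 and 210 bases before the start. In PLAUR it began 186 bases before the start, and in SPHK1 it began 6 bases before it. In MT1X the metal motif occurred at 4 places, of which 1 was on the minus strand, beginning between 150 and 53 bases before the start.

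In the libraries that chose the members, PD24 lay above DMSO by 0.97 to 2.93 (median 1.21) and above PD30 by 0.70 to 3.27 (median 1.18). All 3 PD24 libraries were above every DMSO library for 86 members and above every PD30 library for 86, and 83 met both conditions. Across all 15640 tested genes this held for 22.4%, 18.7% and 7.17%, but the members were picked on these values. For the other 17 members the PD24 libraries overlapped with DMSO or PD30. Of these 17, 12 have transcripts of very high GC content and are described with the GC-rich members.

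**Figure D1:**
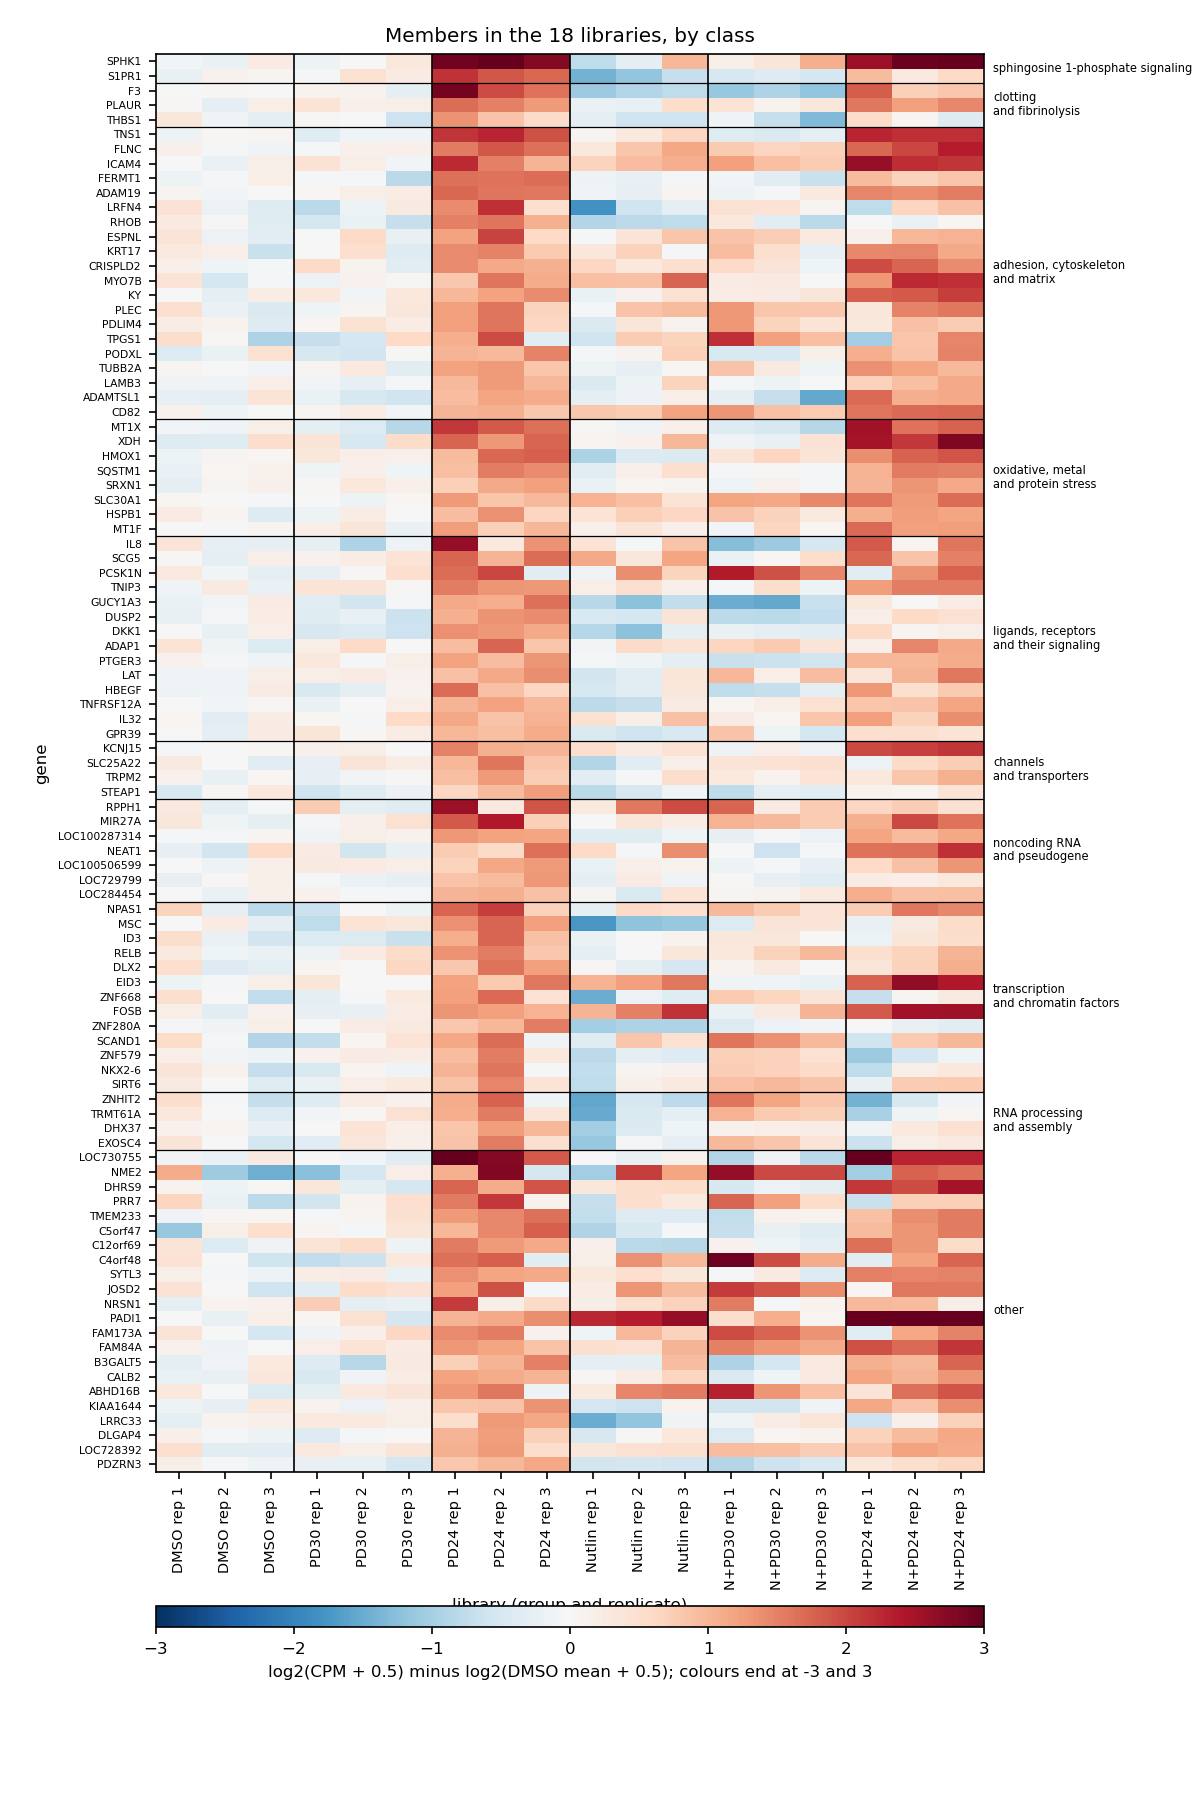
Heat map of the named members (rows, grouped by class) in the 18 libraries (columns), with colour giving the log2 difference from the DMSO mean. The PD24 columns are red for nearly all rows (median difference over all 100 members 1.22, 1.36 and 1.06 in the 3 libraries). The N+PD24 columns are red for most rows (0.96, 1.01 and 1.22). The N+PD30 columns have medians closer to the DMSO mean (0.20, 0.22 and 0.27), with rows that differ from it in both directions.

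The test that did not use the choice of members is the removal of PD0332991 in the presence of Nutlin, that is N+PD24 against N+PD30. No library of these groups entered the ranking, and they mattered only to the minimum of 2 CPM, which 3 members (C4orf48, KY and KCNJ15) met through them alone. For KY and KCNJ15 the group was N+PD24, so these 2 had to be high there. Of the 100 members 62 were higher and 3 were lower in N+PD24 at an adjusted p under 0.05 (limma), where 15.5% of all tested genes were higher and 15.3% lower. With a log2 difference over 1 in addition, 49 were higher and 3 lower, against 4.97% and 4.12% of all genes. The members' median log2 difference in limma was 0.93, against 0.01 for all tested genes, and 82 members had a positive and 18 a negative difference. On CPM of total counts, their median difference from the N+PD30 mean was 0.85, 0.85 and 0.92 in the 3 N+PD24 libraries. Without the 3 members that met the minimum through these groups, 60 of 97 were higher and 3 lower, with a median of 0.91. The 3 libraries of N+PD24 lay above all of N+PD30 for 60 members and below for 8, against 18.2% and 29% of all genes. This was judged on CPM of total counts, without the TMM scaling that limma used.

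Members ranked higher by the rule had larger differences under Nutlin as well. Among ranks 1 to 50, 35 were called higher and 0 lower, with a median of 1.35, and among ranks 51 to 100 the counts were 27 and 3, with a median of 0.70. The next 100 genes outside the limit had 37 higher and 6 lower and a median of 0.30, and the 7163 genes of the window had 14.6% higher and a median of -0.01. Across the 100 members, the difference between PD24 and PD30 and that between N+PD24 and N+PD30 had a Pearson r of 0.44 and a Spearman rho of 0.40. These compare genes within 2 contrasts that share no library, and genes are not independent replicates.

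**Figure D2:**
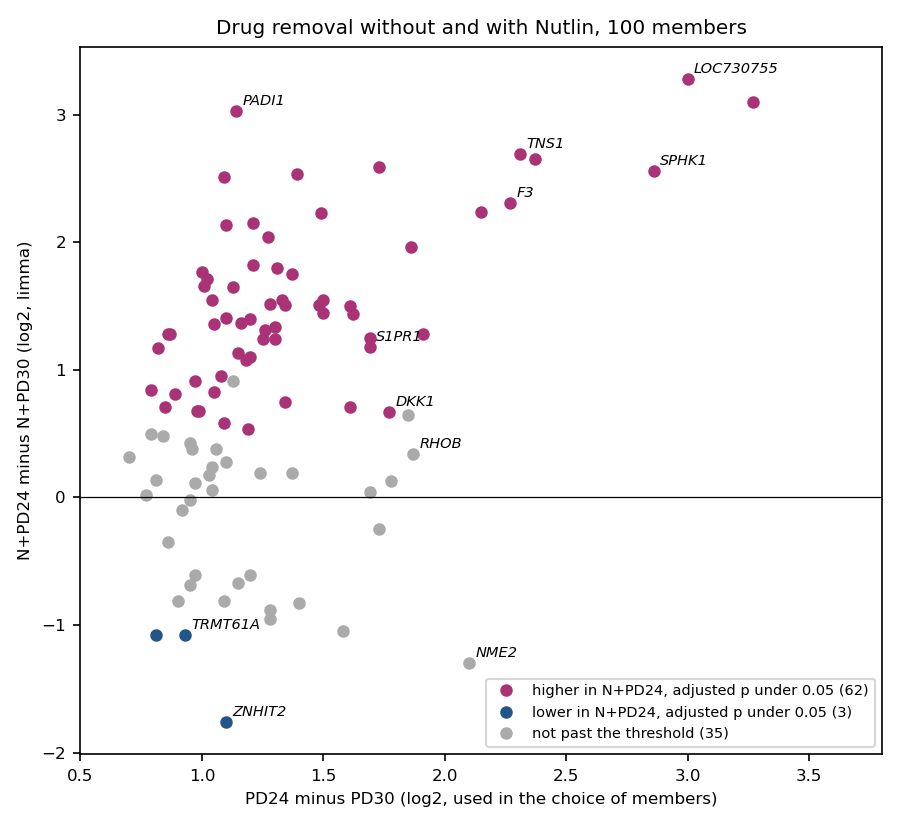
Each point is 1 of the 100 members, with the log2 difference of PD24 and PD30 on the horizontal axis, which the choice of members used, and the log2 difference of N+PD24 and N+PD30 on the vertical axis, which it did not. The 62 members called higher in N+PD24 lie above 0, up to 3.28 for LOC730755, and the 3 called lower reach -1.76 for ZNHIT2.

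SPHK1 stood first in the ranking, and S1PR1, grouped with it as sphingosine 1-phosphate signaling, had rank 6. No list of other genes of this signaling was examined. SPHK1, the kinase that makes sphingosine 1-phosphate (GRCh37 chr17:74372665-74383941), had 14.2, 13.1 and 17.9 CPM in DMSO, 13.6, 15 and 19 CPM in PD30, and 116, 134 and 105 CPM in PD24. With Nutlin it had 17.2, 19.6 and 32.7 CPM in N+PD30 and 91.2, 120.3 and 172 CPM in N+PD24. Thus the groups did not overlap in either setting, and N+PD24 was higher by 2.56 ± 0.249 (log2, SE, adjusted p = 0.000204). S1PR1, a receptor for the lipid that SPHK1 makes (chr1:101702421-101709269), had 6.18 ± 0.849 CPM in DMSO (SD, n = 3), 7.40 ± 1.35 in PD30 and 25 ± 3.98 in PD24. Under Nutlin alone its mean level was 2.69 CPM, and it was higher in N+PD24 than in N+PD30 by 1.18 ± 0.198 (adjusted p = 0.00211). SPHK1 overlaps PRPSAP1 on the opposite strand, as 51 members in all overlap such a gene. The library kit named in the labels does not mark strand, while the authors counted with a reverse-strand setting. Which of these holds for the reads was not settled, and without strand the reads of overlapping genes cannot be told apart.

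Of the 4 members of clotting and fibrinolysis, 3 were higher in N+PD24 than in N+PD30. F3, the tissue factor that starts clotting (chr1:94994729-95007315), had 33.5, 34.8 and 33.6 CPM in DMSO and 253, 134 and 106 CPM in PD24. Nutlin alone left it at 15.6 to 19.7 CPM, and N+PD24 had 120.3, 55.9 and 60.3 CPM against 14.7 to 17.6 CPM in N+PD30 (log2 difference 2.31 ± 0.264, adjusted p = 0.000377). The first replicate was the highest for F3 in both PD24 and N+PD24, and the groups remained apart without overlap. PLAUR, the receptor of urokinase (chr19:44150247-44174699), had 30.5 ± 4.99 CPM in DMSO and 87.2 ± 12.2 CPM in PD24, and rose by 1.24 ± 0.142 in N+PD24 against N+PD30. THBS1, a matrix glycoprotein of platelets and stroma, had 1119 to 2139 CPM in N+PD24 and 583 to 1337 CPM in N+PD30, which overlapped, and its log2 difference of 0.91 ± 0.320 did not pass (adjusted p = 0.054).

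**Figure D3:**
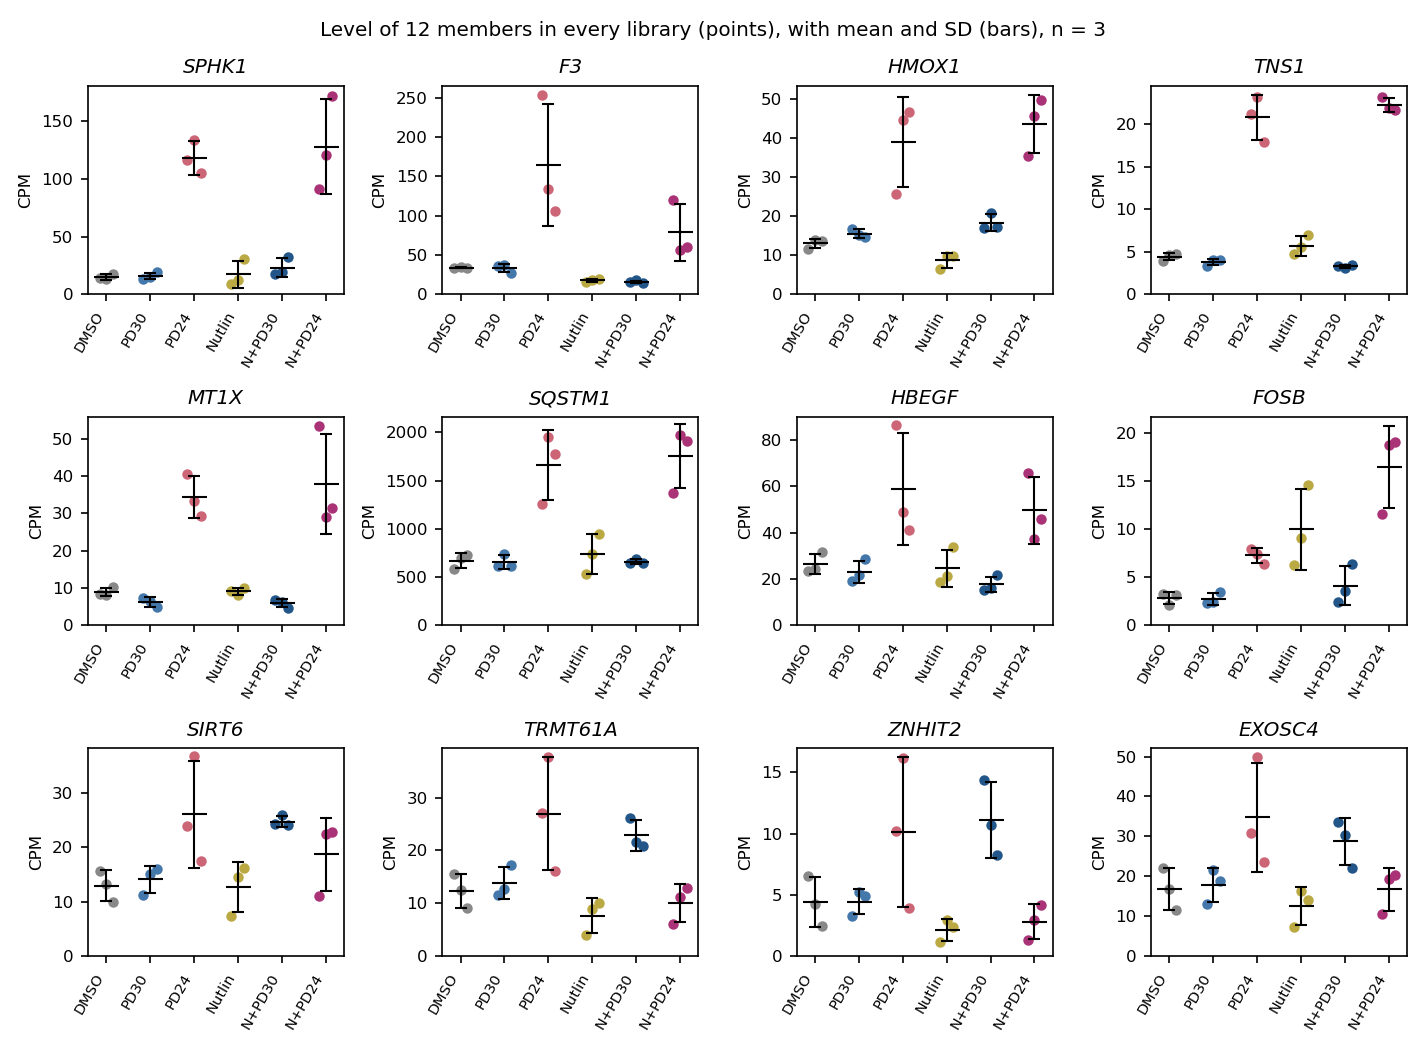
Levels of 12 members in CPM (vertical axes, each from 0) in the 6 groups, with 1 point per library and bars for mean and SD (n = 3). SPHK1, F3, HMOX1, TNS1, MT1X, SQSTM1 and HBEGF are high in PD24 and N+PD24 and lower elsewhere, FOSB also has a mean of 10 CPM with Nutlin alone, and SIRT6, TRMT61A, ZNHIT2 and EXOSC4 are high in PD24 and N+PD30.

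Adhesion, cytoskeleton and matrix genes formed the largest named class, with 20 members. Of these 14 were higher and 0 lower in N+PD24 than in N+PD30, with a median log2 difference of 1.19. TNS1 (tensin), which ties actin to integrins at focal adhesions, had 3.91, 4.61 and 4.69 CPM in DMSO, 21.2, 23.2 and 17.9 CPM in PD24, 3.31, 3.12 and 3.49 CPM in N+PD30, and 23.2, 21.9 and 21.7 CPM in N+PD24. The levels after removal thus lay between 17.9 and 23.2 CPM in all 6 libraries, and N+PD24 exceeded N+PD30 by 2.69 ± 0.146 (adjusted p = 4.95e-05). FLNC, a filamin that crosslinks actin, had 123 to 146 CPM in DMSO, 389 to 483 CPM in PD24 and 439 to 674 CPM in N+PD24, and rose by 1.44 over N+PD30. ICAM4, an adhesion molecule, FERMT1 (kindlin), an activator of integrins, and ADAM19, a membrane-bound metalloprotease, were higher by 1.45, 1.28 and 1.55, each without overlap of the groups. KRT17, a keratin with close pseudogene copies and so with uncertain reads, had 493 to 966 CPM in DMSO, 1341 to 2197 CPM in PD24, 659.9 to 1485 CPM in N+PD30 and 1718 to 2161 CPM in N+PD24, with a difference of 1.08 (adjusted p = 0.0144). The 6 members of the class that did not pass were LRFN4, RHOB, ESPNL, PLEC, PDLIM4 and TPGS1. RHOB, a small GTPase of actin and endosomes, had 223 ± 41.5 CPM in PD24 against 84 ± 17.7 CPM in DMSO (SD, n = 3). Under Nutlin it had 73.4 to 87.1 CPM in N+PD24 and 48 to 105 CPM in N+PD30, and its log2 difference was 0.34 (adjusted p = 0.328).

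Among the 9 members of oxidative, metal and protein stress, 8 were higher and 0 lower, with a median of 1.34. MT1X, a metallothionein that binds zinc and copper, had 8.48, 8.15 and 10.2 CPM in DMSO, 40.6, 33.4 and 29.3 CPM in PD24, 6.77, 6.22 and 4.75 CPM in N+PD30, and 53.4, 28.9 and 31.5 CPM in N+PD24. The difference under Nutlin was 2.65 ± 0.248 (adjusted p = 0.000182), and MT1F, a close copy of the same family, was higher by 1.28. Reads of 50 bases can be split between metallothionein genes, so each of these values is uncertain. HMOX1, which degrades heme, had 11.7 to 13.8 CPM in DMSO, 25.7 to 46.6 CPM in PD24 and 35.5 to 49.9 CPM in N+PD24, and differed from N+PD30 by 1.34 ± 0.155 (adjusted p = 0.000405). SQSTM1, the autophagy receptor p62, had 583 to 729 CPM in DMSO, 1252 to 1955 CPM in PD24, 644 to 686 CPM in N+PD30 and 1370 to 1973 CPM in N+PD24, and differed by 1.51. SRXN1 (sulfiredoxin), XDH (xanthine dehydrogenase) and HSPB1, a small heat shock protein, were higher by 1.28, 2.54 and 0.68. SLC30A1, a zinc exporter, had 40.1 to 52.8 CPM in N+PD24 and 36.7 to 44.8 CPM in N+PD30, and its difference of 0.38 did not pass (adjusted p = 0.0676).

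Of the 14 ligands, receptors and their signaling partners, 10 were higher and 0 lower, with a median of 1.04. HBEGF, a ligand of the EGF receptor, had 23.6, 24.2 and 31.6 CPM in DMSO, 86.2, 49.0 and 41.3 CPM in PD24, 15.3, 16.2 and 21.5 CPM in N+PD30, and 65.6, 37.2 and 45.7 CPM in N+PD24. It was higher by 1.55 ± 0.212 under Nutlin (adjusted p = 0.000775). IL8, the neutrophil chemokine CXCL8, varied between replicates after removal, with 27.6, 5.02 and 10.9 CPM in PD24 and 15.6, 4.25 and 13.1 CPM in N+PD24, against 1.34, 1.61 and 2.66 CPM in N+PD30 (log2 difference 2.24 ± 0.408, adjusted p = 0.00312). In PD24 its second replicate lay within the DMSO range of 3.29 to 5.39 CPM. DKK1, a secreted Wnt antagonist, TNFRSF12A, the receptor of TWEAK, and PTGER3, a prostaglandin receptor, were higher by 0.67, 0.83 and 1.77. DUSP2, a phosphatase of MAP kinases, was low throughout, at 2.41 to 3.23 CPM in PD24 and 1.11 to 1.60 CPM in N+PD24, and was higher by 1.25 (adjusted p = 0.000876). SCG5, TNIP3, GUCY1A3 and IL32 also rose, while the differences of PCSK1N (-0.88), ADAP1 (0.43), LAT (0.38) and GPR39 (0.50) did not pass.

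Of the 5 channels and transporters, STEAP1, a membrane protein, was higher by 0.75 and TRPM2, a cation channel, by 0.58. KCNJ15, an inward rectifier of potassium, had 2.19 CPM in N+PD24 and 0.137 CPM in N+PD30, but was a member through its N+PD24 level. SLC25A22, a mitochondrial carrier, did not pass, at 0.06. Of the 7 noncoding RNAs and pseudogenes, 6 were higher and 0 lower. NEAT1, the scaffold RNA of paraspeckles, had 471, 481 and 699 CPM in N+PD24 against 155, 99.0 and 150 CPM in N+PD30, a difference of 2.15 ± 0.199 (adjusted p = 0.000173). In PD24 it had 258, 227 and 481 CPM, and the lowest of these did not exceed the highest DMSO library, at 228 CPM. LOC100287314 (LINC00941) had 9.16 to 10.2 CPM in DMSO, 22.4 to 24.5 CPM in PD24 and 19.1 to 22.4 CPM in N+PD24, with little spread, and was higher than in N+PD30 by 1.37.

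The table entry MIR27A counts reads on the hairpin of a microRNA gene, in RNA libraries that do not measure the mature microRNA. It had 2.27, 3.58 and 0.771 CPM in PD24 against 0.129 to 0.485 CPM in DMSO, and 1.11, 2.54 and 1.91 CPM in N+PD24 against 0.823 to 1.10 CPM in N+PD30 (log2 difference 0.71, adjusted p = 0.049). Its host transcript LOC284454 (MIR23AHG, GRCh37 chr19:13934694-13953742), which contains it on the same strand, was also a member, with 20.6 to 26.4 CPM in DMSO, 43.9 to 50.4 CPM in PD24 and 44 to 50.7 CPM in N+PD24, and was higher by 0.91 ± 0.127 (adjusted p = 0.000865). The hairpin and its 3' arm are shown to place the entry, with the seed, bases 2 to 8 of the mature form, in capitals (RefSeq, GRCh38.p14, minus strand of chr19:13836440-13836517).
Hairpin: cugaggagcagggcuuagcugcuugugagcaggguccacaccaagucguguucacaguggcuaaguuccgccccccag
hsa-miR-27a-3p: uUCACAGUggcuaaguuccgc
RPPH1, the RNA part of ribonuclease P, stood at rank 8 through 2 of its 3 PD24 libraries (4.21, 0.464 and 2.39 CPM), and had 0.578 to 0.812 CPM in N+PD24 against 0.437 to 2.13 CPM in N+PD30 (-0.25, adjusted p = 0.603).

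Several members without a shared class had large differences. LOC730755 (KRTAP2-3, a keratin-associated protein with near-identical copies beside it, so that its reads are uncertain) had 1.80 to 2.72 CPM in DMSO, 30.1, 17.3 and 9.05 CPM in PD24, 0.945, 1.88 and 1.02 CPM in N+PD30, and 22.8, 12.5 and 12.5 CPM in N+PD24, and was higher by 3.28 ± 0.283 (adjusted p = 0.000143). PADI1, a peptidylarginine deiminase, had 11.8 to 15.5 CPM in PD24 and 28.7 to 36.9 CPM with Nutlin alone. It had 5.76 to 12.4 CPM in N+PD30 and 60.4 to 74.9 CPM in N+PD24, and so lay below Nutlin alone under continuous drug (a log2 difference of -1.89 ± 0.246, adjusted p = 0.000138, edgeR) and higher after removal (1.13 ± 0.125, adjusted p = 0.00014, limma). DHRS9, a retinol dehydrogenase, was higher in N+PD24 than in N+PD30 by 2.59, and the 22 members outside the named classes had 13 higher and 0 lower.

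Of the 13 transcription and chromatin factors 3 were higher and 1 was lower in N+PD24 than in N+PD30, with a median of 0.13, near the 15.5% and 15.3% of all tested genes. Classes were not tested against each other. FOSB, a subunit of AP-1, had 2.15 to 3.30 CPM in DMSO, 6.41 to 7.98 CPM in PD24, 6.32 to 14.6 CPM in Nutlin, 2.44 to 6.39 CPM in N+PD30 and 11.6 to 19.1 CPM in N+PD24, and was higher by 2.04 ± 0.291 (adjusted p = 0.000961). The other two that rose were DLX2, a homeobox factor, and EID3, which lies within TXNRD1 on the same strand, so that its reads may be shared, and which was higher by 2.51. ID3, an inhibitor of helix-loop-helix factors, had 126 to 228 CPM in PD24 against 45.8 to 99.0 CPM in DMSO. With Nutlin it had 60.2 to 98.4 CPM in N+PD24 and 68.0 to 86.2 CPM in N+PD30, which overlapped. RELB, a subunit of NF-kB, had 17.3 to 28.8 CPM in PD24 and 8.24 to 11.8 CPM in DMSO, and its difference under Nutlin was 0.18 (adjusted p = 0.493). In this class 8 of 13 were higher in N+PD30 than in Nutlin alone, where 24% of all tested genes were higher.

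The 3 members called lower in N+PD24 were ZNHIT2, a factor of spliceosome assembly, TRMT61A, a tRNA methyltransferase, and ZNF579, a zinc finger protein. ZNHIT2 had 10.2, 16.2 and 3.98 CPM in PD24 against 2.49 to 6.54 CPM in DMSO, and 14.4, 10.7 and 8.23 CPM in N+PD30 against 1.35, 3 and 4.15 CPM in N+PD24 (-1.76 ± 0.326, adjusted p = 0.00337). Its PD24 libraries overlapped DMSO, and its N+PD30 libraries lay above all of N+PD24. TRMT61A and ZNF579 had differences of -1.08 ± 0.247 and -1.08 ± 0.239 (adjusted p = 0.00939 and 0.00796). All 4 members of RNA processing and assembly, which also include DHX37, a helicase of ribosome assembly, and EXOSC4, a subunit of the RNA exosome, were higher in N+PD30 than in Nutlin, by 0.63 to 2.30.

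These members differed from the others in base composition. The median transcript GC of the members was 57.1%, against 48.3% for the tested genes (98% and 97.6% had a transcript). It was 53% for the 62 members called higher in N+PD24, 64.3% for the 35 that did not pass and 66.0% for the 3 called lower. Of the 98 members with a transcript, 30 belonged to the top 10% of tested genes by GC (61.5% or more), and 7 of these 30 were called higher and 3 lower. Of the other 68, 55 were called higher and 0 lower. Among all tested genes this top 10% had 5.7% called higher and the rest 16.4%. Called lower were 391 of the 1526 genes in this top 10% and 1966 of the 13734 others. In the top 10% the median log2 difference of all genes was -0.32 for N+PD24 against N+PD30 and 0.47 for N+PD30 against Nutlin.

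**Figure D4:**
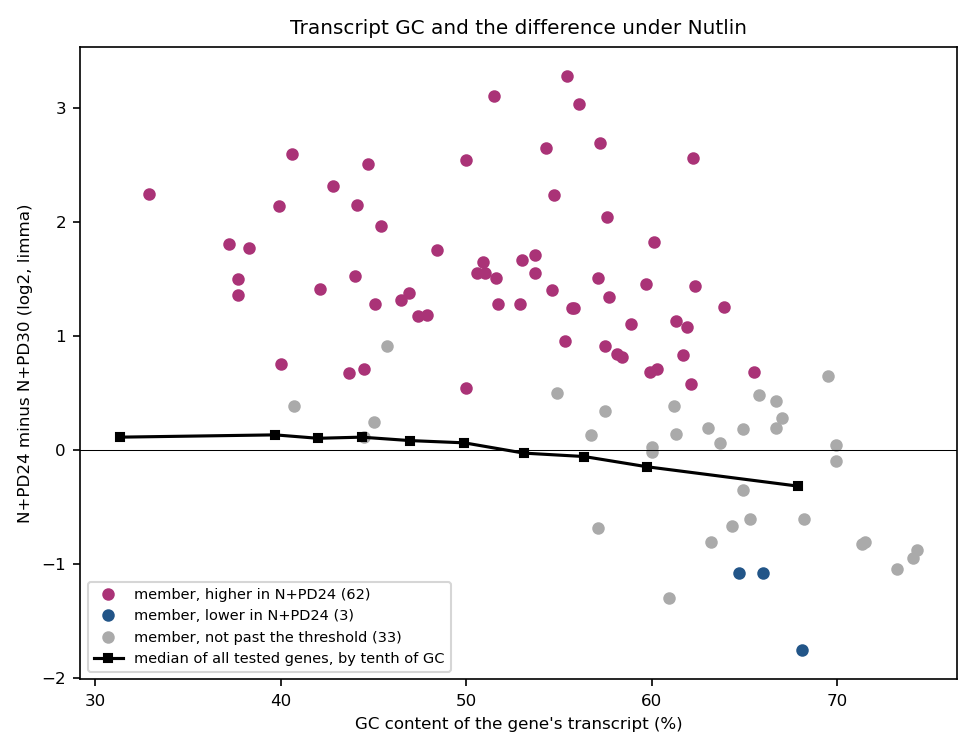
Transcript GC (horizontal axis, %) against the log2 difference of N+PD24 and N+PD30 (vertical axis) for the 98 members with a transcript, with black squares for the median of all tested genes in each of 10 equal bins of GC. Of the 62 members called higher 55 lie below 61.5%, and the 3 called lower lie beyond it, where the median of all genes is -0.32.

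The 30 GC-rich members also varied between replicates of the same group. Their median difference from the DMSO mean was 1.21, 1.63 and 0.54 in the PD24 libraries, and 0.31, -0.03 and -0.40 in the DMSO libraries themselves. In N+PD24 it was -0.07, 0.85 and 1.10, and in N+PD30 it was 0.87, 0.76 and 0.56. The other 68 members had 1.22, 1.20 and 1.24 in PD24, 1.19, 1.06 and 1.41 in N+PD24, and -0.11, -0.03 and -0.04 in N+PD30. All tested genes of the top 10% had the same order of libraries within PD24 (0.22, 0.58 and 0.06) and within N+PD24 (-0.26, 0.28 and 0.33). The second PD24 replicate was the highest of the 3 for 29 of the 30 GC-rich members and for 18 of the other 68. Across all tested genes it was the highest for 1278 of 1526 in the top 10% and for 3234 of 13734 in the rest. This order of libraries was thus not particular to the members. Of the 17 members whose PD24 libraries overlapped with DMSO or PD30, 12 were GC-rich, and 0 of these 12 were called higher in N+PD24. NME2, for example, a nucleoside diphosphate kinase that shares exons with a readthrough transcript, had 4.65, 16.3 and 1.19 CPM in PD24 and 4.79, 0.659 and 0.388 CPM in DMSO, and its rank of 12 rests on the second PD24 library. The part of base composition in these results was tested only by a correction per library, given in the closing section, with which 13 of the 30 GC-rich members and 58 of the other 68 kept a place among the first 100.

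**Figure D5:**
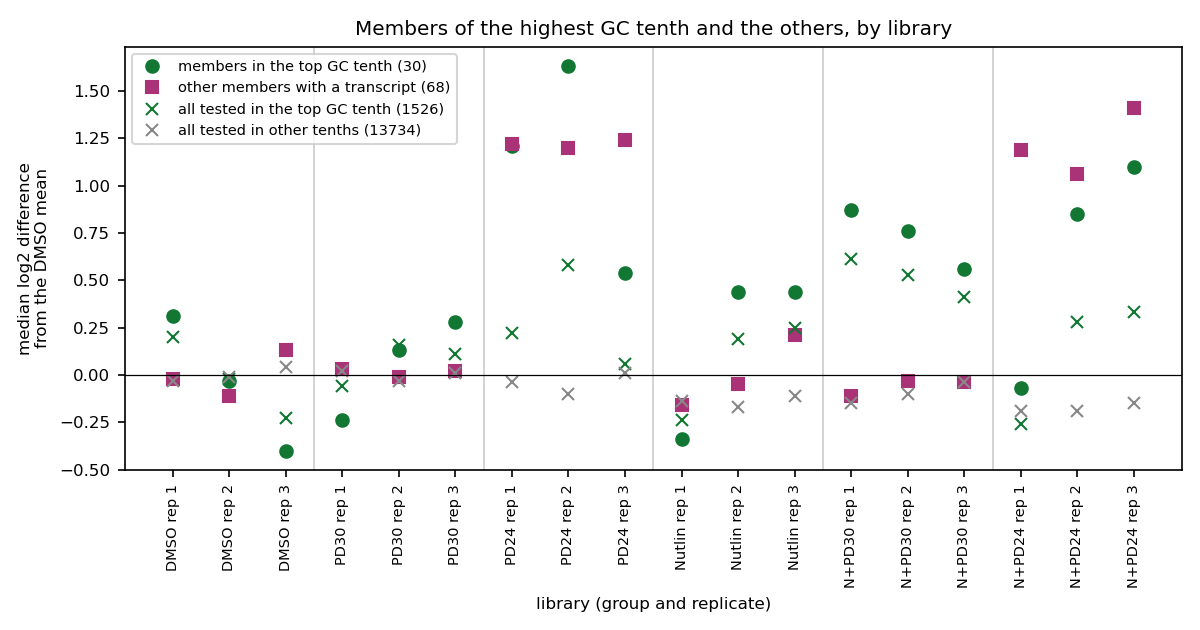
Median log2 difference from the DMSO mean (vertical axis) in each of the 18 libraries (horizontal axis), for the 30 members in the top 10% of transcript GC, the other 68 members, and all tested genes in and below the top 10%. The 68 members sit between 1.06 and 1.41 in all 6 libraries after removal and between -0.16 and 0.21 elsewhere, and the 30 GC-rich members range from -0.07 to 1.63 after removal and from 0.56 to 0.87 in N+PD30.

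Nutlin alone left the members near the DMSO level, with a median difference of 0.09 (range -1.34 for MSC to 2.43 for PADI1), given without a test since DMSO entered the rule. Against Nutlin alone, N+PD24 was higher for 69 members and lower for 0 (limma, adjusted p under 0.05; 16.9% and 17.2% of all tested genes), with a median of 1.02. With a log2 difference over 1 in addition, 50 were higher (3.24% of all genes) and 0 lower (5.72%), and the groups did not overlap for 65 higher members (19.7% of all genes). At an unadjusted p under 0.05, 76 members differed, against 44.6% of all genes. Replicate numbers paired these 2 groups, and with the number as a block 85 were higher and 1 lower, against 26.8% and 26.3% of all genes. N+PD30 was higher than Nutlin for 28 members and lower for 14 (edgeR), against 24% and 23.8% of all genes, with a median of 0.12. With a log2 fold change over 1 these were 17 and 8, against 8.42% and 12.9% of all genes, and the groups did not overlap for 25 higher and 13 lower members, against 29.9% and 26.8%. The 28 had a median transcript GC of 64.3% and the 14 one of 51.6%. These 3 comparisons share libraries, and their values stand side by side. N+PD24 was above both N+PD30 and Nutlin for 57 members, against 4.78% of all genes, and for 53 of these (93%) N+PD30 was not called above Nutlin, near the 90.6% of all genes above both. TNS1, MT1X, HMOX1 and SPHK1 are among the 57, with differences from Nutlin alone of 1.95, 2.01, 2.34 and 3.07. IL8 fell under continuous drug when compared with Nutlin alone (-1.62 ± 0.297, adjusted p = 0.00117), and in N+PD24 its difference from Nutlin was 0.83 (adjusted p = 0.152).

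Fixed lists of related pathways place the members among the other genes, and their counts are read beside the 15.5% of all tested genes that were higher and the 15.3% that were lower in N+PD24 than in N+PD30. Of 28 tested secreted growth factors and cytokines, 11 were higher and 1 lower in N+PD24 than in N+PD30 (median 0.43), and HBEGF and IL8 were the members among them. CSF2, with a difference of 3.16, and IL11, with 2.26, were not members because their PD30 levels lay 0.57 and 1.15 below DMSO, outside the window. Of 21 SRF and YAP target genes 8 were higher and 2 lower, with THBS1 and F3 among the members. Of 27 immediate-early and AP-1 factors 5 were higher and 9 lower (median -0.23), and FOSB was the member among them. JUND, with -2.88, and JUNB, with -1.20, were lower in N+PD24, while JUN, with 0.58 (adjusted p = 0.0324, limma), was higher, as FOSB was. Heat shock genes had 16 of 20 higher and 1 lower (median 0.75), of which HSPB1 was a member. The list of ERK feedback genes had 3 of 18 higher and 3 lower, and it also held the chemokine IL8, which is not a feedback regulator. DUSP2 and IL8 were its members, and both were among the 3 higher. NF-kB target genes had 2 of 16 higher and 1 lower, with RELB and IL8 as members. IL8 thus counted in each of these lists and among the cytokines. No member came from the lists of p53 targets (6 of 25 higher, 6 lower), G1/S and E2F targets (6 of 44 higher, 2 lower), G2/M genes (4 of 26 higher, 1 lower), ribosome biogenesis (8 of 34 higher, 0 lower), cholesterol synthesis (0 of 23 higher, 16 lower) or the amino acid response (2 of 20 higher, 9 lower). The window of the rule held 1 G1/S gene and 0 G2/M genes, and the summed level of the G1/S list was 5650 to 6131 CPM in DMSO and 469 to 513 CPM in PD30. It was 605 to 787 CPM in PD24, 501 to 527 CPM in N+PD30 and 536 to 539 CPM in N+PD24. The list thus stayed far below DMSO after removal. The window held 25 ribosome biogenesis genes and 10 p53 targets.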

How the data were processed

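RNA of SJSA cells was sequenced by the authors as single reads of 50 bases. Per the submitters' processing notes, reads were mapped to hg19 with TopHat and Bowtie2 and counted with HTSeq 0.6.0, which the study's methods describe as set to the reverse strand. The deposited tables, though named as variance-stabilized, hold raw counts for DMSO, Nutlin, PD24, PD30 and N+PD30. The N+PD24 columns were deposited as signal, that is counts multiplied by 1 constant per library, since 100% of values lay within 0.01 of whole multiples (1.27993, 0.793688 and 1.03224 per read). The constant cancels in CPM. The authors' tables of base means, fold changes and p-values were not used. Of 23368 gene names, 28 had been turned into dates.

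The members and lists were chosen with earlier results of these data known, and classes were assigned after the members' names were seen. Named genes were the members with the 10 largest differences between PD24 and DMSO, the 10 highest and up to 5 lowest in N+PD24 against N+PD30, members of the lists, the 5 with the highest mean, those beside the limit, and up to 4 per class. Others were named after their values were seen.

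N+PD24 was compared with limma 3.58.1 (R 4.3.3, mean-variance trend) on log2(CPM + 0.5) with TMM-scaled library sizes, so a log2 difference understates the change of low genes. N+PD30 was compared with Nutlin by the quasi-likelihood test of edgeR 4.0.16. Whether groups overlapped was judged on CPM of total counts, without TMM. All 15640 genes with a mean of at least 0.3 CPM over 18 libraries were tested, which keeps every member, and p-values were adjusted by Benjamini-Hochberg over them. On simulated counts of 15640 genes, 4-fold changes were recovered in 100% in each comparison. Recovery of 2-fold changes was 77% (N+PD24 against N+PD30), 88% (N+PD24 against Nutlin) and 90% (N+PD30 against Nutlin), with 4.32%, 4.08% and 7.32% false calls. Only a small part of the genes was changed, none of them near the floor in the second group named, and no GC differences between libraries were simulated. The rates therefore do not cover members near the floor or such differences. Alternatives were other pseudocounts, scalings and filters, edgeR and DESeq2 1.42.0 on recovered reads, a replicate block, stricter thresholds and leaving out each replicate. The numbers paired N+PD24 with Nutlin (correlations of deviations 0.627, 0.371 and 0.471), as every pair exceeded 0.1. A correction for transcript GC in 20 bins per library was added after seeing the data. Transcript GC came from GENCODE on GRCh37. Some members are not reported here by name, while the counts include them.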

Additional observations from a re-analysis of the deposited data

Results flagged for a closer look

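For 4 members the libraries separated one way without Nutlin and the other way with it, in CPM scaled by total counts. Every PD24 library lay above every PD30 library, and every N+PD24 library lay below every N+PD30 library. This held for 2.88% of all tested genes, so a count of 4 in 100 is near that share, and PD24 against PD30 is close to what chose the members. The difference between the 2 contrasts was not tested. They were ZNF579, with a log2 difference of N+PD24 against N+PD30 of -1.08, EXOSC4 (-0.69), ZNF668 (-0.61) and SIRT6, a chromatin deacetylase (-0.35), and of these ZNF579 passed the adjusted p of limma.

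SIRT6 had 23.9, 36.7 and 17.4 CPM in PD24 and 11.3, 15.1 and 16 CPM in PD30, but 11, 22.4 and 22.7 CPM in N+PD24 and 24.2, 25.8 and 24.0 CPM in N+PD30. Its gap under Nutlin was narrow. The TMM scaling used by limma had factors of 0.905 to 0.9455 in N+PD24 and 0.9662 to 1.024 in N+PD30. On that scale the SIRT6 groups may overlap. All 4 members had a higher level in the second PD24 library than in the others. Transcript GC was 66.0% for ZNF579, 65.3% for ZNF668, 64.9% for SIRT6 and 57.1% for EXOSC4.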

How the results depend on the processing

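In N+PD24 against N+PD30, 53 of the 62 members called higher and all 3 called lower were called under every setting at an adjusted p of 0.05. The members called higher numbered 58 to 63 over the other scalings, filters, pseudocounts and tools, and 56 to 64 without 1 replicate. They were 62 with a replicate block (all genes 2653). With the added GC correction 68 were higher and 4 lower (all genes 2626 and 2792). The 3 called lower became 3 to 7 without 1 replicate, with 5 without N+PD24 replicate 3 and 7 without N+PD30 replicate 3. The members' median moved from 0.934 to 0.818 with scaling by total counts, 0.985 with edgeR, 0.978 with DESeq2 and 1.093 with GC correction, and to 0.918 to 1.05 without 1 replicate. All genes called higher and lower (2425 and 2395) were 777 and 645 with a log2 difference over 1, 1283 and 1187 at an adjusted p of 0.01, and 1548 to 2307 and 1478 to 2430 without 1 replicate, least without N+PD30 replicate 2 and next without N+PD24 replicate 2 (1582 and 1505). Same-numbered libraries of these groups did not pair by the check of deviations (0.0499, 0.0912 and 0.328).

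In N+PD24 against Nutlin, the block raised all genes called from 2645 and 2696 to 4197 and 4106 (4149 and 4189 with GC correction as well, with 84 members higher). All genes called were 506 and 895 with a log2 difference over 1, 1416 and 1674 at an adjusted p of 0.01, and 1750 to 2434 and 2134 to 2788 without 1 replicate, least without Nutlin replicate 2. Members called lower were 0 to 1 and the median was 0.878 to 1.109 without 1 replicate.

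In N+PD30 against Nutlin, 28 members were higher and 14 lower (all genes 3760 and 3730). They became 17 and 8 with a log2 fold change over 1 (all genes 1317 and 2014). At an adjusted p of 0.01 they were 10 and 7 (all genes 2524 and 2615). With GC correction they were 22 and 18 (all genes 4044 and 3994), and the median of 0.117 turned to -0.05. Without 1 replicate, 13 to 28 members were called higher (all genes 2887 to 3649), and the median was 0.042 to 0.241. There were 17 without N+PD30 replicate 1, 13 without N+PD30 replicate 2 and 16 without Nutlin replicate 1. The causes were not tested. The block changed no other count by over 1.5 times.

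The choice of members itself kept 77 to 96 of the 100 under other scalings, pseudocounts and minimums, 69 to 89 without 1 replicate (69 without DMSO replicate 1), and 73 with GC correction. The 23 members under 5 CPM in every group rest on few reads.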
